A study of Mus musculus with 4 samples.

Results

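The 8 genes described here are immediate early genes: the zinc finger factors Egr1, Egr2 and Egr3, the orphan nuclear receptors Nr4a1, Nr4a2 and Nr4a3, and the stress and growth response genes Ier2 and Ier3. They were chosen by name, 8 of the 21883 protein-coding genes of the RefSeq table. No measured value entered that choice, though earlier results of these data were known. Their open chromatin was read as every peak that overlapped the gene body or the 50 kb on either side, which gave 110 of the 77914 regions of the series. A region is a stretch covered by peaks of the 4 libraries that share at least 1 bp.

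Immediate early genes are transcribed within minutes of a signal, without new protein synthesis, from promoters that are already open and that bind factors such as SRF at serum response elements and CREB at cyclic AMP response elements. EGR proteins bind a GC-rich site and act as activators or, with NAB corepressors, as repressors. NR4A receptors bind DNA without a known hormone, as monomers or, for some of them, with a retinoid X receptor. In mice, Egr1 is known for holding haematopoietic stem cells in quiescence, Egr2 and Egr3 for limiting lymphocyte activation, and Nr4a1 with Nr4a3 for restraining myeloid growth.

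ATAC-seq, in which a transposase marks open chromatin, had been run on T2 and T1 MPP3 cells of mouse bone marrow, sorted by flow cytometry in a study of how Bcl11a acts within these cells. MPP3 cells are multipotent progenitors with a bias to granulocytes and monocytes. The T2 group held 2 libraries and the T1 group held 2 libraries, both from WT-iMOS mice aged 3 months, labelled by genotype as WTiMOS_T2 and WTiMOS_T1. The labels explain neither T1 and T2 nor iMOS, name no treatment, and do not say whether replicates came from separate animals, so the spread between replicates may be technical. The T2 lists held 66764 and 62704 peaks and the T1 lists 58454 and 54045, on chromosomes 1 to 19, X and Y. The lists carry no read counts, so depth is unknown. At gene ends, 9 of 11 progenitor markers had a peak in all 4 libraries, with Ly6a and Mpo the exceptions, against 2 of 4 T cell, 1 of 3 endothelial and 2 of 4 hepatocyte and neural genes. Of these 3 lists, Cd3e and Cd4 (T cells), Kdr (endothelium) and Alb and Apoa1 (hepatocytes) had such a peak, while Cd3g, Cd8a, Cdh5, Tek and the neural genes Neurod1 and Olig2 did not. Open chromatin at a marker of another lineage does not show that its cells were present, and the part of such cells in the results was not tested.

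The promoters are shown first because each of the 5 windows printed below lay under a peak in all 4 libraries. The window of the outer Egr2 start, at 67535499, did not and is not printed. RefSeq promoter windows on GRCm38.p6, whose coordinates are those of mm10, were matched for 5 of the 8 genes, namely Egr2, Nr4a1, Nr4a2, Nr4a3 and Ier3. Given below, 5′ to 3′ on the strand of the gene, are the 250 bases before the start, for Egr2 the start at 67537870. That Egr2 start was picked from those whose windows held the most motif matches. Capitals mark matches, on either strand, to the cyclic AMP response element core TGACG, the serum response element core (CArG box), the NF-kB site and the TATA box TATAAA. Matches on the opposite strand appear as the reverse complement. The NF-kB match of Nr4a1, at −3 to 6, runs past the printed bases and is not marked.
Egr2 (chr10:67537620-67537869, plus strand): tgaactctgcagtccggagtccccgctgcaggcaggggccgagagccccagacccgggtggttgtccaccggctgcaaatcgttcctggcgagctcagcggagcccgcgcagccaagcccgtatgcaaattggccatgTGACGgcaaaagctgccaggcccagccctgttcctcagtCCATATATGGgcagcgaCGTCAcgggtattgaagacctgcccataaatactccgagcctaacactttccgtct
Nr4a1 (chr15:101266596-101266845, plus strand): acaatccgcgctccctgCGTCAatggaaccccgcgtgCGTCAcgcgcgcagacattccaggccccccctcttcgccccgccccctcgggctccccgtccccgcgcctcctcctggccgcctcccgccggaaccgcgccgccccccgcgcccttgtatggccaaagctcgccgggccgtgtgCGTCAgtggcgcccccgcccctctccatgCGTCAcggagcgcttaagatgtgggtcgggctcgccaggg
Nr4a2 (chr2:57124004-57124253, minus strand): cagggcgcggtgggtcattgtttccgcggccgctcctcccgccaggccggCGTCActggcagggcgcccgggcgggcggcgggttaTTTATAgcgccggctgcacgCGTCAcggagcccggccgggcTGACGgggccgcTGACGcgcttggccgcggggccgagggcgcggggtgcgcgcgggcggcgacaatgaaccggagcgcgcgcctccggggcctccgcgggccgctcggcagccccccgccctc
Nr4a3 (chr4:48045055-48045304, plus strand): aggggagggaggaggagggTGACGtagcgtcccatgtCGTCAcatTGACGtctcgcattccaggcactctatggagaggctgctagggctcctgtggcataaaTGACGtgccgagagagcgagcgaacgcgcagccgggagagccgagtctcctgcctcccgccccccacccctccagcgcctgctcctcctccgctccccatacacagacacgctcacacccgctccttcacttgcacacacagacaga
Ier3 (chr17:35821463-35821712, plus strand): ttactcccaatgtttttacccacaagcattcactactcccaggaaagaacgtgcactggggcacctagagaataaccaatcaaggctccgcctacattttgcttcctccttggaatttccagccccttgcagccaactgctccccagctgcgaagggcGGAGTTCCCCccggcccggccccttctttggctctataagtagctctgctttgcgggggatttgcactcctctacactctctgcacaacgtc

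All 3 NR4A promoters held 4 TGACG cores each. Among all 32851 promoter windows of the table, each of 300 bases, 20.8% held at least 1 and 0.231% held at least 4. In Nr4a1 the cores began at −233, −213, −69 and −40 from the start, in Nr4a2 at −200, −144, −123 and −111, and in Nr4a3 at −231, −213, −205 and −147. Egr2 held a CArG box at −73 to −64, a motif in 1.63% of windows, between TGACG cores beginning at −112 and −56. Both motifs occurred together in 0.244% of windows. Because this Egr2 start was picked by its motif matches, that share is no measure of how unusual the gene is. A second CArG box lay before another Egr2 start, at −72 to −63 from 67537566, with no TGACG core in that window. NF-kB sites, in 8.46% of windows, lay at −92 to −83 in Ier3 and at −3 to 6 in Nr4a1, and also before the outer Egr2 start at 67535499, where 2 overlapping matches lay and no library had a peak. The TATA box, in 13.6% of windows, was matched in Nr4a2 and in none of the other 4 genes, at −164 to −159 on the other strand. No window of these 5 genes held the full element TGACGTCA (1.79% of windows), the EGR site GCGTGGGCG (0.612%), the NR4A monomer site AAAGGTCA (1.51%) or the AP-1 sites TGAGTCA and TGACTCA (5.20%). These are matches of letters and do not show binding.

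Peak summits, taken from the start, differed in how closely the libraries placed them. The Nr4a1 summits were at −97 and −92 in T2 and at −97 and −92 in T1, between the outer and inner pairs of TGACG cores. Ier3 summits were at −20 and −111 in T2 and at −119 and −118 in T1. At Nr4a3 they were at −254 and −177 in T2 and at −177 and −179 in T1, and at Nr4a2 at −272 and −272 in T2 and at −266 and −236 in T1. From the start at 67537870, the Egr2 summits were at −329 and −330 in T2 and at −138 and −387 in T1. From the start at 67537566, in the same region, they were at −25 and −26 in T2 and at 166 and −83 in T1.

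**Figure D1:**
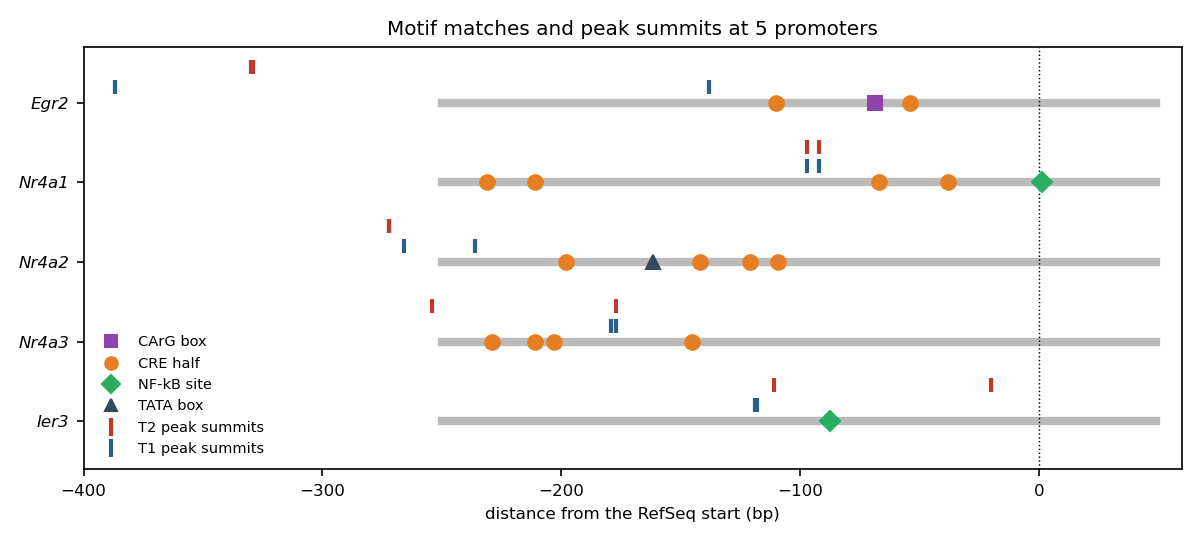
Motif matches and peak summits (ticks, T2 above T1) against distance in bp from the RefSeq start at 5 promoters, where the grey bar is the promoter window. For Egr2 the start at 67537870 is used, picked from those with the most motif matches. Another start, at 67537566, lies closer to most of its summits. Each NR4A promoter carries 4 TGACG cores (orange), and Nr4a1 summits coincide at −97 and −92 in both groups.

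The landscape around these genes was mostly common to T2 and T1. Of the 110 regions, 75 (68.2%) had a peak in all 4 libraries, where 56.8% of all regions did. T2 libraries had a peak at 93 and 88 of the 110 regions and T1 libraries at 88 and 87. A peak in both T2 libraries and neither T1 library (T2-only) was seen at 2 regions (1.82%), against 6.88% of all regions. The opposite pattern (T1-only) was seen at 0, against 2.33% of all regions. A count of 0 among 110 allows a share of up to 2.73%, counting error only, so fewer T1-only regions than elsewhere were not detectable. By gene, 2 of the 8 members had a T2-only region, where 35% of protein-coding genes had one, and 0 had a T1-only region, where 13.6% had one. No test was made, since with 2 libraries a group the smallest two-sided p of an exact permutation is 0.333. These counts depended on list length and on single libraries. Shares over all regions moved with them. T2-only regions numbered 10 of 105 without T2 replicate 2 (15.7% of all regions in that setting), 7 of 102 without T2 replicate 1 (12.5% of all) and 6 of 108 without T1 replicate 1 (13.1% of all). T1-only regions numbered 1 of 105 without T2 replicate 2 (3.44% of all), 4 of 102 without T2 replicate 1 (4.701% of all), 7 of 108 without T1 replicate 1 (4.51% of all) and 4 of 104 without T1 replicate 2 (6.14% of all). With every list shortened to that of the shortest, 0 regions were T2-only and 2 were T1-only, both at Nr4a3, against 4.33% and 4.61% of all regions in that setting.

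Of the remaining 33 regions, 23 had a peak in a single library (8 and 5 in the T2 libraries, 4 and 6 in the T1 libraries), 9 lacked it in a single library (5 in a T2 library, 4 in a T1 library) and 1 had it in 1 library of each group. The strongest of them, at 84709281 to 84709513 within Nfix near Ier2, had −log10 q of 26.2 and 35.6 in T2 and of 24.8 in T1 replicate 1, with no peak in T1 replicate 2. Here −log10 q is the authors' significance of a peak over its local background, and it ranks peaks within a list only. The windows were crowded to different degrees. Members had 5 to 24 regions each, with a median of 13.5 against 7 over all protein-coding genes, and 20 of the 110 regions lay within 1 kb of an end of another protein-coding gene.

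**Figure D2:**
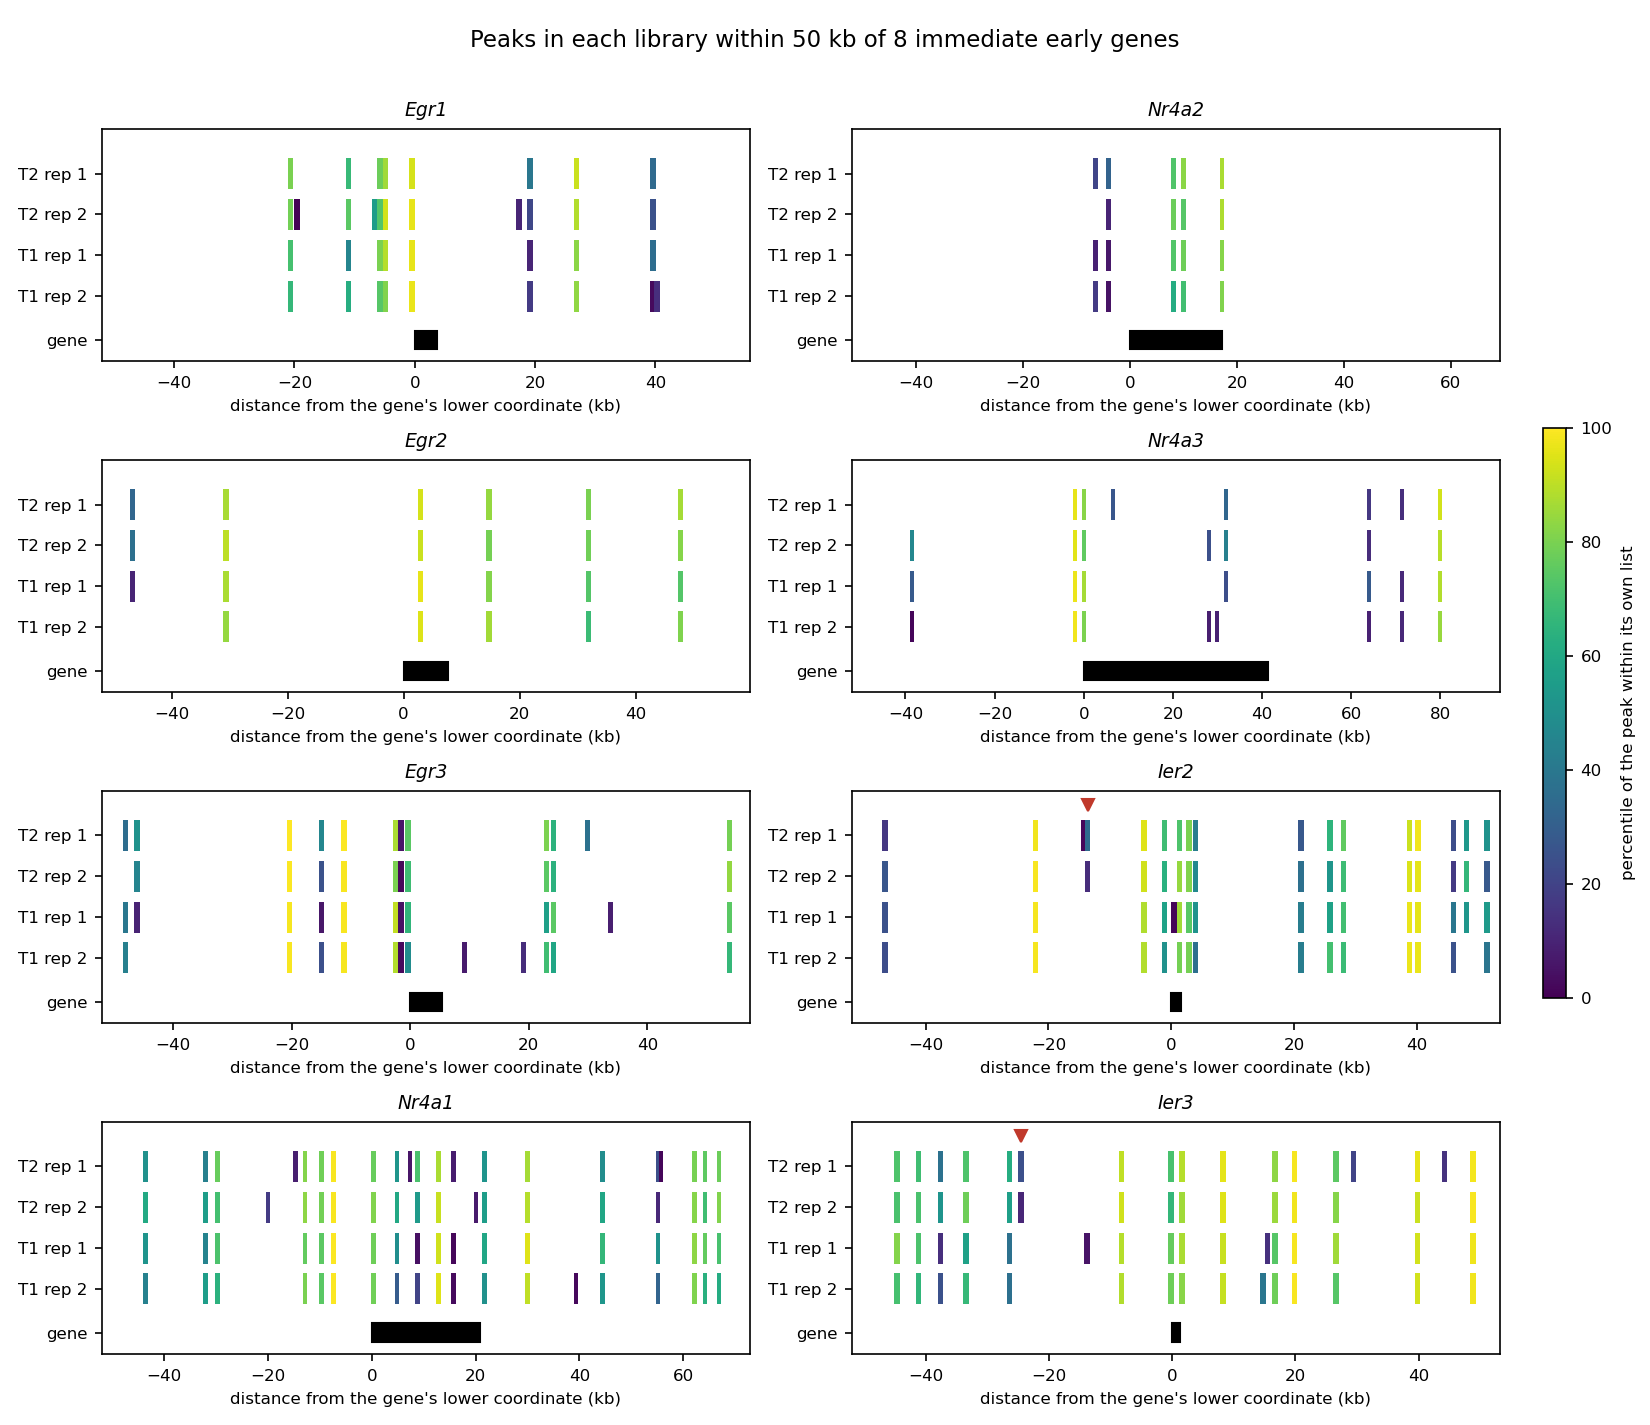
Peaks of each library (rows, T2 above T1) along the 8 loci, in kb from the lower coordinate of the gene (black bar). Marks sit at region centres with a fixed width, colour gives the percentile of the peak within its own list, and red triangles mark the 2 T2-only regions, at Ier2 and Ier3.

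**Figure D3:**
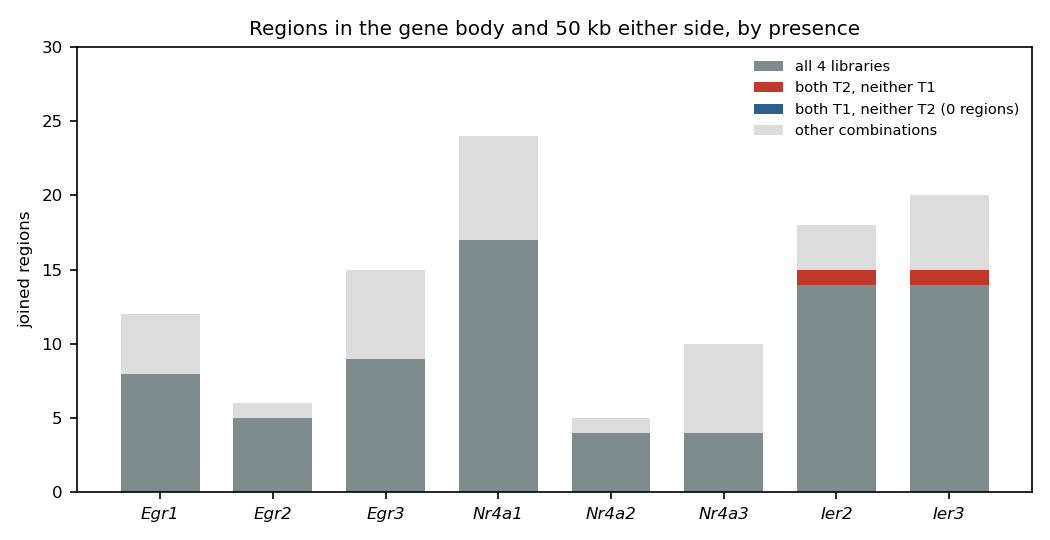
Number of joined regions per gene by the libraries that hold a peak. Grey, the regions found in all 4 libraries, makes up 75 of 110, and the red T2-only class has 1 region at Ier2 and 1 at Ier3.

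Every member was open at its start in all 4 libraries, 8 of 8, where 58.8% of protein-coding genes were. For Egr1, Egr3 and Ier2, which were not in the promoter table, this was read within 1 kb of either end of the gene. To set libraries side by side, each of the 44274 regions shared by all 4 libraries was ranked within each library by −log10 q and given a percentile, with 100 as the strongest. The start regions spanned much of that scale. Egr1 was the highest by mean and Egr3 the lowest in T1, with Ier3 the lowest in T2.

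Of the 8 start regions, 5 ranked higher in both T1 libraries than in both T2 libraries (Egr1, Egr2, Nr4a1, Nr4a3 and Ier3), 2 ranked higher in both T2 libraries (Egr3 and Nr4a2) and Ier2 overlapped. The Ier2 tally depends on which of its ends is read, since its strand was not in the tables used. The stronger end region by mean −log10 q was used, and the one at the other end, 84659945 to 84660443, was higher in both T2 libraries, at 53.7 and 49.3 in T2 and 44.7 and 40.6 in T1. Over all 12878 genes with a shared start region, 30.8% ranked higher in both T1 libraries and 21.6% in both T2 libraries. The median difference, T2 minus T1, was −6.50 percentile points over the 8 members and −0.532 over all start regions. The pattern was noticed in the data, and it depends on the ranking value. Ranked by the deposited fold over background in place of −log10 q, 3 remained higher in T1 (Egr2, Nr4a1 and Ier3), 1 remained higher in T2 (Egr3), and 4 overlapped, where by fold 33.8% of all start regions were higher in both T1 libraries and 14.3% in both T2 libraries.

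**Figure D4:**
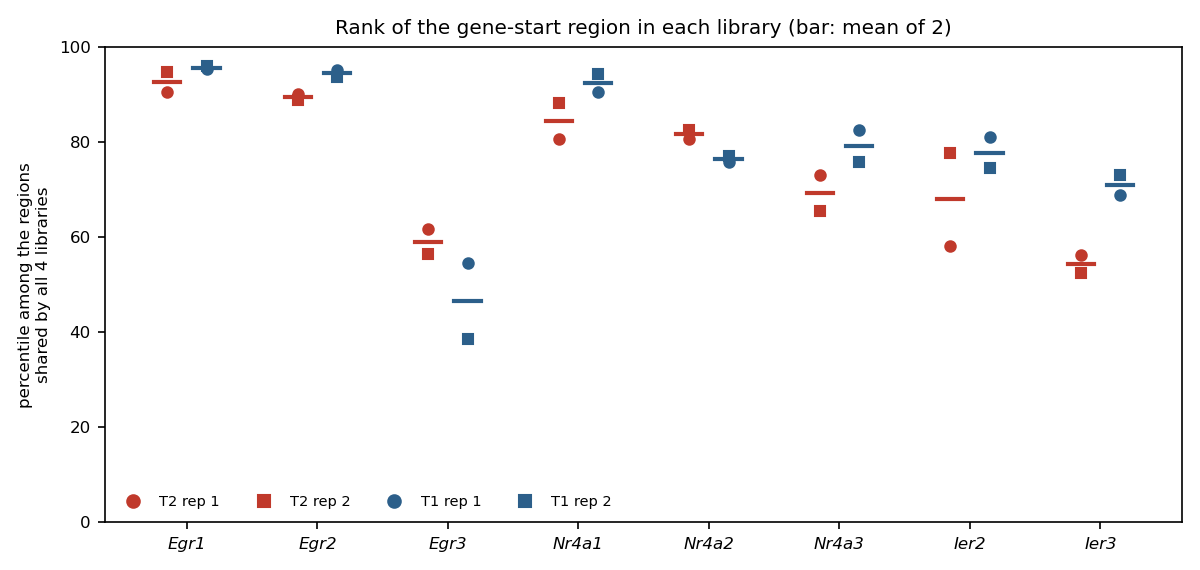
Percentile of the start region of each gene among the 44274 shared regions, 1 point per library, T2 left and T1 right, with a bar at the mean of 2. T1 points lie above T2 points at Egr1, Egr2, Nr4a1, Nr4a3 and Ier3, and below them at Egr3 and Nr4a2.

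Egr1, the factor known for stem cell quiescence, had 12 regions, 8 of them in all 4 libraries. Its start region, 34859802 to 34861654 on chromosome 18, was the widest of the 8 at 1853 bp and the strongest of its locus, with −log10 q of 137 and 142 in T2 and of 177 and 147 in T1. These values placed it at percentiles 90.5 and 94.6 in T2 and 95.3 and 96.1 in T1, so the groups did not overlap, though T2 replicate 2 and T1 replicate 1 lay close together. By fold the percentiles were 14.2 and 21.3 in T2 and 19.3 and 26.3 in T1, and the groups overlapped. The next strongest regions, on the low-coordinate side at 34855992 to 34856664 and beyond the gene at 34887016 to 34889121, stood at 78.6 and 90.5 in T2 against 85.3 and 76.8 in T1, and at 88.0 and 83.8 in T2 against 76.9 and 79.8 in T1. Neither passed the rule for a rank difference given below.

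Egr2, which drives myelination and limits lymphocyte activation, had 6 regions, 5 of them in all 4 libraries. The start region, 67536773 to 67537988 on chromosome 10, covered 4 of its 5 RefSeq starts and was the strongest of the locus. It had −log10 q of 136 and 106 in T2 and of 176 and 124 in T1, and percentiles of 90.2 and 88.8 in T2 and 95.2 and 93.7 in T1. T1 was higher without overlap, by 4.996 points on average, and also by fold over background, which was 12.0 and 11.6 in T2 and 13.6 and 13.9 in T1. An upstream region 30171 bp away, at 67503379 to 67504298, overlapped between groups, at percentiles 80.4 and 85.8 in T2 and 83.5 and 80.6 in T1.

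Egr3, a close relative of Egr2 with a similar role in lymphocytes, had 15 regions, 9 of them in all 4 libraries. The strongest lay away from the gene on its low-coordinate side, 19715 bp off for 70056256 to 70057602 and 10744 bp off for 70065688 to 70066573, both on chromosome 14. They stood at percentiles 99.4 and 99.1 in T2 and 98.1 and 99.0 in T1, and at 98.9 and 98.8 in T2 and 98.8 and 98.3 in T1, among the strongest of the shared regions in each library. The first lies within Pebp4. The region next to the gene end, 70076639 to 70077183, was weaker, with −log10 q of 53.4 and 39.0 in T2 and of 37.4 and 19.6 in T1, and percentiles of 61.6 and 56.5 in T2 and 54.6 and 38.5 in T1. It was higher in T2 without overlap, while its neighbour at 70074490 to 70075370, 1947 bp from the gene, was higher in T1, at 81.0 and 71.7 in T2 and 87.9 and 86.0 in T1.

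Nr4a1 (Nur77), a receptor quickly induced by antigen receptor signals in lymphocytes, had the most regions of the 8 genes, 24, with 17 in all 4 libraries. On chromosome 15 the start region, 101266263 to 101267137, had peaks with −log10 q of 93.8 and 103 in T2 and of 134 and 128 in T1, with percentiles of 80.7 and 88.2 in T2 and 90.6 and 94.3 in T1. T1 was higher without overlap, and in fold over background too, with 6.73 and 8.20 in T2 and 8.46 and 9.93 in T1. A region 7061 bp upstream of the gene body, at 101246117 to 101246841, was the strongest of the locus, at percentiles 98.3 and 98.6 in T2 and 99.5 and 99.3 in T1.

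A further Nr4a1 region, inside the gene body at 101262548 to 101262936, had the largest rank difference of all 75 shared regions. Its summits lay a median of 4128 bp before the start at 101266846, and the peaks there had −log10 q of 47.4 and 24.6 in T2 and of 4.58 and 8.52 in T1. That put it at percentiles 57.1 and 37.5 in T2 and 0.899 and 11.6 in T1, a mean difference of 41.1 points. Differences this large or larger toward T2 were seen at 50 shared regions, 0.113% of all. The fold over background was low in both groups, 4.89 and 3.96 in T2 and 2.07 and 2.74 in T1. In fold percentiles all 4 libraries were near the bottom, at 5.40 and 1.85 in T2 and 0.0113 and 0.120 in T1, so the groups kept their order but differed by 3.56 points.

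The Nr4a1 window also held the largest difference in the other direction. The region at 101308736 to 101309402, 33941 bp downstream, had −log10 q of 11.1 and 6.60 in T2 and of 23.5 and 12.4 in T1, and percentiles of 7.38 and 3.00 in T2 and 36.7 and 21.9 in T1. The fold over background was again higher in T1, with 6.70 and 5.58 in T2 and 10.01 and 7.09 in T1. Differences this large or larger toward T1 were seen at 2.63% of shared regions.

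Nr4a2 (Nurr1), known for dopaminergic neurons, had the fewest regions, 5, with 4 in all 4 libraries. Its window held 1 neighbouring gene model, LOC105244150, which overlapped the start region. Its start region, 57123449 to 57124560 on chromosome 2, held peaks with −log10 q of 93.9 and 83.2 in T2 and of 71.7 and 58.2 in T1, and percentiles of 80.7 and 82.6 in T2 and 75.9 and 77.0 in T1. T2 was higher without overlap, by 5.21 points on average, but by fold the groups overlapped, at percentiles 66.6 and 75.9 in T2 and 65.3 and 69.3 in T1. Both other regions inside the gene body overlapped between groups.

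Nr4a3 (Nor1), which acts with Nr4a1 in restraining myeloid growth in mice, had 10 regions and the smallest shared part of the 8 genes, 4 of 10. The strongest region, 48042658 to 48043700 on chromosome 4 and 1378 bp upstream of the gene body, stood at percentiles 94.4 and 93.5 in T2 and 96.1 and 97.5 in T1. The start region itself, 48044594 to 48045494, had −log10 q of 73.5 and 49.1 in T2 and of 92.6 and 55.5 in T1, and percentiles of 73.0 and 65.5 in T2 and 82.4 and 75.7 in T1. T1 was higher in both, without overlap. In fold over background the start region overlapped between groups, with 4.94 and 4.63 in T2 and 5.31 and 4.76 in T1.

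Ier2, a small nuclear protein induced by serum, had 18 regions, 14 of them in all 4 libraries, in a window shared with 5 other coding genes, Cacna1a, Lyl1, Nacc1, Nfix and Trmt1. The region at its higher coordinate, 84662273 to 84663109 on chromosome 8, held peaks with −log10 q of 48.6 and 70.6 in T2 and of 87.5 and 53.3 in T1, and percentiles of 58.1 and 77.8 in T2 and 81.0 and 74.5 in T1, which overlapped. The strongest region of the window lay in Cacna1a at 84638528 to 84639912, at 96.7 and 98.6 in T2 and 98.3 and 98.5 in T1. The start of Lyl1, a bHLH factor of early haematopoiesis, at 84701126 to 84701890, stood at 96.7 and 94.4 in T2 and 94.6 and 96.0 in T1. The T2-only region lay at 84647536 to 84647891, 13440 bp from the gene and outside any coding gene, with −log10 q of 15.1 and 6.95 in T2 and no deposited peak in T1.

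Ier3, a target of NF-kB and p53 that modulates survival and ERK signalling, had 20 regions, 14 of them in all 4 libraries. Its start region, 35820989 to 35822095 on chromosome 17, held peaks with −log10 q of 46.4 and 35.3 in T2 and of 56.5 and 50.6 in T1. At percentiles of 56.2 and 52.5 in T2 and 68.8 and 73.0 in T1, it had the largest difference of the 8 start regions, −16.5 points, without overlap. In fold over background the order held, with 5.23 and 5.17 in T2 and 5.95 and 6.76 in T1, with a difference in percentile of −9.14 points. Upstream the order was the opposite at some regions. The T2-only region at 35796967 to 35797383, 24330 bp before the gene, had −log10 q of 11.4 and 6.42 in T2 and no deposited peak in T1. Next to it, at 35794917 to 35795611, percentiles were 43.9 and 39.6 in T2 and 22.4 and 26.2 in T1, and at 35783940 to 35784302 they were 16.7 and 34.9 in T2 and 4.705 and 15.6 in T1. The strongest region of the window was the start of Mdc1, at 35841141 to 35841893, with 98.1 and 97.2 in T2 and 98.2 and 99.0 in T1.

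A shared region was counted as ranking higher in a group where both of that group's percentiles lay above both of the other's and the means differed by at least 10 points. Over the 8 loci, 6 of 75 shared regions (8%) ranked higher in T2, against 13.8% of all shared regions, and 7 (9.33%) ranked higher in T1, against 13.4%. The median difference was 0.513 points over the 75 regions and 0.0215 over all shared regions. Members' differences ran between −24.1 and 41.1 points with quartiles of −6.40 and 5.73, and the quartiles over all shared regions were −5.80 and 6.09. Those counts also moved with single libraries, as did the shares over all shared regions. Regions ranking higher in T2 numbered 10 of 76 without T2 replicate 1 (17.5% of all) and 12 of 79 without T1 replicate 2 (16.7% of all). Regions ranking higher in T1 numbered 15 of 79 without T2 replicate 2 (15.8% of all) and 17 of 79 without T1 replicate 2 (16.3% of all). Egr1, Egr2, Nr4a2 and Nr4a3 had no region past the rule by −log10 q. Beside the regions given above, it held at Egr3 for 70099833 to 70100742 (higher in T2) and 70101261 to 70101691 (higher in T1), both in Bin3, and at Nr4a1 for 101320391 to 101321279 (higher in T2). It also held at Ier2 for 84682291 to 84682601 in Nacc1 and 84706710 to 84707841 in Nfix, and at Ier3 for 35776646 to 35777451, all higher in T1. The Egr3 values were 70.5 and 63.7 in T2 and 43.7 and 62.8 in T1 for the first, and 46.8 and 49.7 in T2 and 66.0 and 50.6 in T1 for the second. The Nr4a1 region had 65.9 and 73.1 in T2 and 61.9 and 53.6 in T1. At Ier2 the values were 9.31 and 19.1 in T2 and 27.1 and 31.9 in T1 for the first, and 6.97 and 5.50 in T2 and 24.6 and 15.8 in T1 for the second. At Ier3 they were 57.9 and 59.5 in T2 and 75.4 and 64.3 in T1. The same rule applied to fold percentiles picked mostly other regions. By fold, 4 of the 75 were higher in T2, against 14.3% of all shared regions, and 7 of the 75 were higher in T1, against 14.9%. Of the 6 higher in T2, 1 also passed by fold (the first Egr3 region in Bin3), and of the 7 higher in T1, 2 did (Egr3 at 70074490 and Nr4a1 at 101308736). By fold alone, the regions at 34840240 near Egr1, 67581842 near Egr2 and 70130745 near Egr3 passed as higher in T2. The starts of Egr2 (−14.3 points) and Nr4a1 (−17.2 points), the Nr4a1 regions at 101246117 and 101283323 and the Ier2 region at 84699873 passed as higher in T1 by fold alone.

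**Figure D5:**
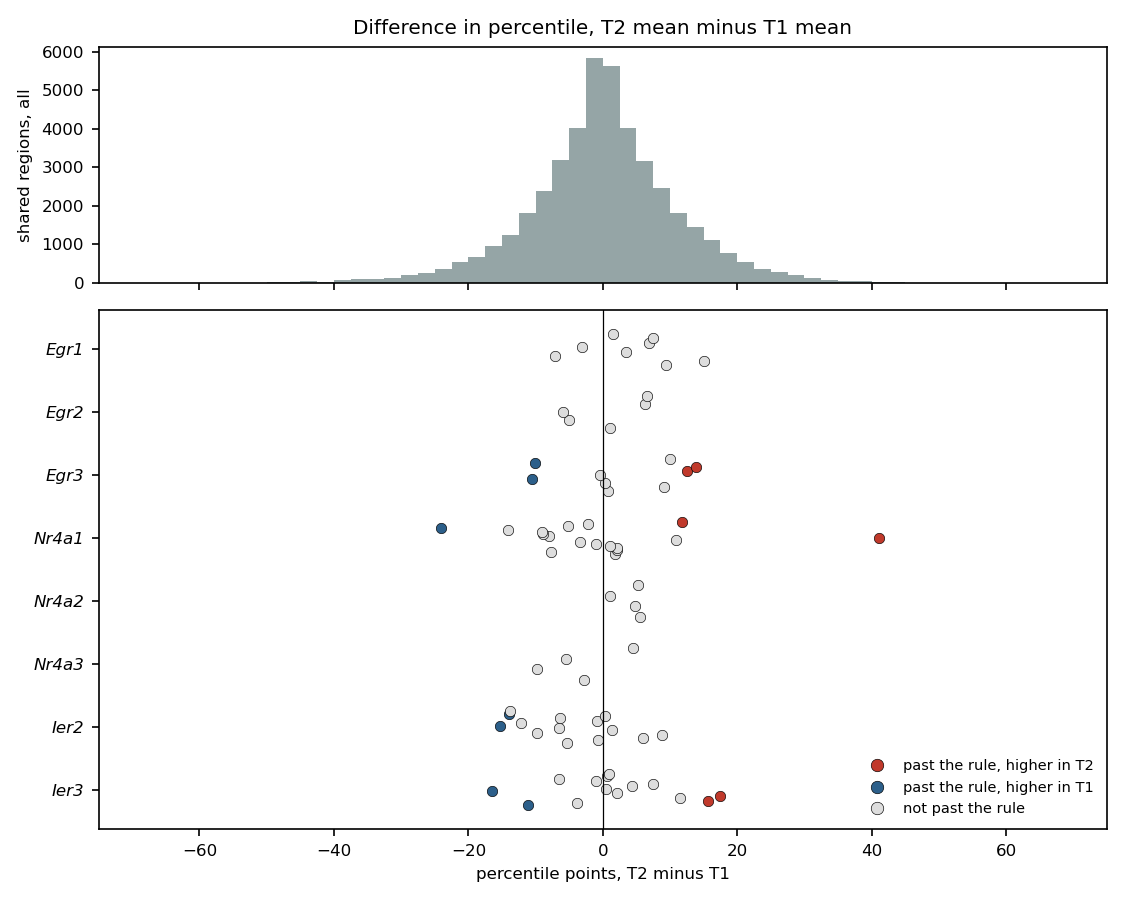
Difference in percentile, T2 mean minus T1 mean, for all 44274 shared regions (top, number of regions per bin) and for the 75 shared regions of the 8 genes (bottom, 1 point each). Red and blue points passed the rule for T2 and T1, and the point at 41.1 is the Nr4a1 region inside the gene body.

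Strong regions lay both at and away from these genes. In all 4 libraries 9 of the 75 shared regions (12.0%) stood at or above percentile 90, where 7.09% of all shared regions did. They were the Egr1 start, both distal Egr3 regions, the upstream regions of Nr4a1 and Nr4a3, and 4 that lie at or in neighbouring genes, in Cacna1a, at the start of Lyl1, at the start of Mdc1 and at 35869973 to 35871051 in Ppp1r18. Of the 75, 13 lay on a member's gene body and 16 within 1 kb of an end of another gene. Which gene a distal region acts on was not measured.

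By the 4 percentiles of the start region, the nearest other gene among 12877 was Utp15 for Egr1 (largest difference in any library 0.705 points), Ccnl1 for Egr2 (0.580), Gpsm1 for Egr3 (3.01) and Sat1 for Nr4a1 (2.43). It was Slit1 for Nr4a2 (1.40), Zfp593 for Nr4a3 (1.54), Ikzf2 for Ier2 (3.96) and Trip12 for Ier3 (2.12). These rest on 4 libraries and describe strength alone.

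The 75 genes around this response, listed with earlier results of these data known, were likewise mostly common to the groups. Their windows held 905 regions, of which 587 (64.9%) had a peak in all 4 libraries, with 38 T2-only (4.20%) and 22 T1-only (2.43%), beside 6.88% and 2.33% of all regions. All but Jund and Ccn1 had a start peak in all 4 libraries, 73 of 75. Among EGR partners, 2 T2-only (6.25%) and 1 T1-only (3.125%) of 32 regions were found. The acetyltransferase genes Crebbp (−log10 q of 32.2 and 15.9 in T2) and Ep300 (27.5 and 5.02 in T2) had the T2-only regions, and Nab1, an EGR corepressor, had the T1-only region (4.81 and 5.18 in T1). The NR4A partners had 0 T2-only and 1 T1-only (2.63%) of 38, the T1-only one near Rxrb, a retinoid X receptor (9.36 and 14.5 in T1).

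SRF and its cofactors had 4 T2-only (4.60%) and 2 T1-only (2.30%) of 87 regions, beside 6.88% and 2.33% of all regions. Srf itself had both T1-only regions, the stronger with −log10 q of 16.1 and 19.7 in T1, while the coactivator Mrtfb had 2 T2-only regions and the ternary complex factor Elk4 had 1 (36.5 and 17.5 in T2). The CREB axis had 3 T2-only and 3 T1-only of 81 (3.70% each). Of these, 3 T2-only and 1 T1-only were near the coactivator Crtc3, and 1 T1-only region each was near Crtc1 and Creb1. The ERK pathway had 6 T2-only and 6 T1-only of 164 (3.66% each). Dusp2, a phosphatase that inactivates ERK, had 3 T1-only regions, and Mapk3 (ERK1) had 2, the stronger with 19.1 and 12.6 in T1. Map2k2 (MEK2) had 2 T2-only regions, the stronger with 33.0 and 32.7 in T2. AP-1 genes had 5 T2-only (3.68%) and 2 T1-only (1.47%) of 136. There was 1 T2-only region each near Fosb (22.5 and 26.7 in T2), Jund (9.96 and 12.2 in T2) and Fos (4.33 and 16.5 in T2). Other immediate early genes had 18 T2-only (4.90%) and 7 T1-only (1.91%) of 367. Gadd45b had 3 T2-only and 1 T1-only, and Btg2 and Sik1 had 2 T2-only regions each.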

How the data were processed

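ATAC-seq peaks of 4 MPP3 libraries were used, grouped as T2 and T1 by their titles. Bowtie2, SAMtools, MACS2 and the build mm10 are named in the submitters' processing notes, and versions, settings and the transposase shift are not stated in any label or header used here. Peak names carry 1 prefix per list, so peaks were called per library. The deposited −log10 q and fold (a ratio, the signal value of the narrowPeak layout) are the authors' values per peak and served for ranking and filtering within each list. The deposited summit offset gave summit positions. Peaks sharing at least 1 bp were joined into regions with Python 3.11.15 and pandas 2.3.3, and the joining and ranking were tested on simulated lists. Gene positions and promoters came from RefSeq (GRCm38.p6). Genes not in the promoter table were read within 1 kb of either end.

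No test across libraries was made. The members, lists and rules were chosen with earlier results of these data known, and the comparison of start regions and the fold ranking of single regions were added after values were seen. The text names all 8 members, their start, strongest, group-only and rank-shifted regions, and in each list of other genes up to 3 with the largest difference between the T2-only count and the T1-only count, plus the gene nearest each member by start percentiles. The next strongest regions of Egr1, Egr2 and Egr3, those at or above percentile 90, and the strongest one missing from 1 library were named after their values were seen. The alternatives tried were minimum −log10 q values of 5 and 10, lists of equal length, peaks covering at least 0.5 of a region, 250 bp either side of summits, windows of 10 and 100 kb, other rankings and thresholds, a start window of 1 kb and leaving out each library.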

Additional observations from a re-analysis of the deposited data

How the results depend on the processing

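T2-only regions at the 8 loci, 2 of 110 as designed, numbered 4 of 87 with −log10 q of at least 10 (8.08% of all regions). Of these, 2 were at Egr3 and 1 each at Egr2 and Nr4a1. With 0 at Ier2 and Ier3, neither of the 2 regions named above was among them. T2-only regions numbered 0 of 100 with lists of equal length (4.33% of all). With peaks covering at least 0.5 of a region there were 5 of 110 (7.86% of all). T2-only regions numbered 0 of 42 within 10 kb and 8 of 197 within 100 kb (6.88% of all). They ranged between 2 and 10 when single libraries were left out, with 10 without T2 replicate 2, 7 without T2 replicate 1 and 6 without T1 replicate 1. T1-only regions, 0 of 110 as designed, numbered 2 of 100 with lists of equal length (4.61% of all) and 4 of 197 within 100 kb (2.33% of all). With a library left out they ranged between 1 and 7, with 7 without T1 replicate 1 and 4 each without T1 replicate 2 and T2 replicate 1. Regions in all 4 libraries numbered 31 of 42 within 10 kb and 127 of 197 within 100 kb, against 75 of 110. Over all regions the share was 56.8%. At Ier3, T2-only minus T1-only regions reversed to −1 without T1 replicate 2, against 1.

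Shared regions ranking higher in T2, 6 of 75 as designed, numbered 2 of 31 within 10 kb (13.8% of all shared regions). They numbered 1 with at least 20 points (3.97% of all), 15 with at least 5 points (21.1%) and 15 of 75 ranked within the whole list (22.7%). With a library left out they ranged between 8 and 12, with 12 without T1 replicate 2 and 10 without T2 replicate 1. Those higher in T1, 7 of 75 as designed, numbered 2 of 31 within 10 kb and 13 of 127 within 100 kb (13.4% of all shared regions). They numbered 1 with at least 20 points (4.35% of all), 16 with at least 5 points (20.9%) and 3 within the whole list (6.09%). With a library left out they ranged between 6 and 17, with 17 without T1 replicate 2 and 15 without T2 replicate 2. T2 lists are longer, and within whole lists the median difference over all shared regions was 3.15 points. Start regions higher in both T1 libraries numbered 3 by fold against 5, and those higher in both T2 libraries 1 against 2. With a library left out they numbered between 5 and 6 and 2. The count of members open at the start in all 4 libraries kept to 8 in the alternatives run. No paired analysis was possible because the labels tie the replicate numbers to no shared animal or batch. Read depth is unknown, so a missing peak is only one that was not called.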
